A study of Mus musculus with 12 samples.

Results

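The complement genes described here are 9 of the 45777 genes counted in mouse kidney RNA. They were chosen by gene symbol, with earlier results of these data known. They comprise C1qa, C1qb and C1qc, the chains of the recognition molecule C1q, together with C3, C4b and Cfb, which feed the convertases, the protease gene Cfi, and the receptor genes C3ar1 and C5ar1. All 9 were found and all 9 passed the filter on low counts. The kidneys came from male wild-type C57BL/6 mice in 4 groups of 3 libraries. The normal group had neither cisplatin nor vesicles. The other groups had cisplatin, a platinum drug that damages the renal tubule, at 9 mg/kg into the peritoneum, weekly over 5 cycles. They were then injected into a vein 5 times, 3 days apart, with PBS or with 200 µg (EV200) or 400 µg (EV400) of extracellular vesicles from cells that the labels call iMSC. Kidneys were taken 3 days after the last injection. No intravenous injection is listed for the normal mice, so cisplatin and the injections cannot be told apart in comparisons with them. The labels call the libraries of a group biological replicates but do not say that each came from a separate mouse, so p-values measure only the spread between these samples.

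Complement is a cascade of plasma and tissue proteins. C1q, bound to immune complexes or dying cells, starts the classical pathway, in which C4 and C2 are cleaved to form a C3 convertase. Factor B forms the convertase of the alternative pathway, and factor I, with cofactors, degrades the active fragments of C3 and C4. Cleavage of C3 and C5 releases the anaphylatoxins that signal through C3ar1 and C5ar1. The liver supplies most plasma C3, C4 and factor B, while C1q is made mainly by macrophages and related cells, and kidney tubule cells can make C3 and factor B themselves.

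The C1q genes lie side by side on mouse chromosome 4 (RefSeq coordinates, GRCm38.p6), C1qb at chr4:136880126-136886200, C1qc at chr4:136889801-136892936 and C1qa at chr4:136895916-136898844. Chromosome 17 carries C3 at chr17:57203967-57228136, C4b at chr17:34728139-34743902 and Cfb at chr17:34856374-34862514. Cfi lies at chr3:129836727-129875332, C3ar1 at chr6:122847140-122856157 and C5ar1 at chr7:16246743-16259540. RefSeq promoter windows, 250 bases before to 50 after the annotated start, were matched for 5 members, C1qb, C1qc, C3, C3ar1 and C5ar1. Those of C1qb, C1qc and C3 are printed because C1q and C3 are the genes set against each other here. All 3 are on the minus strand, at chr4:136886151-136886450, chr4:136892865-136893164 and chr17:57228087-57228386. Capitals mark matches, on either strand, to GAGGAA (the core of PU.1, a myeloid factor), TTNNGNAA (C/EBP), TGANTCA (AP-1), TTCNNNGAA (STAT) or TATAAA.
C1qb: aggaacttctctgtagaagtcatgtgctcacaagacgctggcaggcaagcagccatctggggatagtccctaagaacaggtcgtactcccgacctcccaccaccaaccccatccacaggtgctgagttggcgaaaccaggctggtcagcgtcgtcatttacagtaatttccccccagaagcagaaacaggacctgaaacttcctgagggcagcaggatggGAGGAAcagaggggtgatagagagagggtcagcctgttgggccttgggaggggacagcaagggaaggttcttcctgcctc
C1qc: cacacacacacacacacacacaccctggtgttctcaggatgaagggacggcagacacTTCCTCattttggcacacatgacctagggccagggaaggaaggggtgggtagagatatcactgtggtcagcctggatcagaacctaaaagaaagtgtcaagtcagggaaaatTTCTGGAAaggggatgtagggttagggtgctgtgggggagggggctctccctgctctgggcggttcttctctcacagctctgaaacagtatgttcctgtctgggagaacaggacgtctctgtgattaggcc
C3: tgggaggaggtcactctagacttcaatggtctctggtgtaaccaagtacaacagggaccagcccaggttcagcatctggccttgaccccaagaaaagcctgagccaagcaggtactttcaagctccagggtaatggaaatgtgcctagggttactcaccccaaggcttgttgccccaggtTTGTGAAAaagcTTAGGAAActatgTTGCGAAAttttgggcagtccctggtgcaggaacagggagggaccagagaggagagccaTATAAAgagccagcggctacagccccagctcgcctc

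The C3 window held 3 matches to TTNNGNAA, beginning 70, 58 and 45 bases before the annotated start, and the last of them read as a match on both strands. It also held TATAAA, 14 bases after that start. The C1qb window held GAGGAA, and the C1qc window held its reverse complement and 1 match to TTNNGNAA. Of 32851 mouse promoter windows of the same length, 28.3% held GAGGAA, 40.7% TTNNGNAA, 13.6% TATAAA, 7.81% TGANTCA and 8.3% TTCNNNGAA. A match describes the letters and does not show that a factor binds there.

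Libraries held 46.6 to 62.1 M counted reads, and the members had 30 (C5ar1) to 32378 (Cfb) counts per library. All 10 genes of a kidney list were present, the scarcest at a mean of 27.9 CPM. CPM are counts relative to the library total, adjusted by its TMM factor, and they were compared only within a gene or as sums over a list. The summed level of 20 macrophage markers was 227 to 259 CPM in normal, 462 to 912 in PBS, 290 to 763 in EV200 and 214 to 418 in EV400. Libraries EV200 3 and EV400 3 stood apart from the others of their groups in the members, as given gene by gene. These libraries and PBS 2 also stood apart over all genes tested. By chi-square per degree of freedom between counts, PBS 2 differed from PBS 1 and PBS 3 by 107 and 80.2, the largest values within any group. PBS 1 and PBS 3 differed by 16.9. EV200 3 differed from EV200 1 and EV200 2 by 70.6 and 44.8, where those differed from each other by 23.2. EV400 3 differed from EV400 1 and EV400 2 by 36.3 and 58.9, where those differed from each other by 13.2. In these bulk samples, fewer cells of a type and less RNA per cell cannot be told apart.

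**Figure D1:**
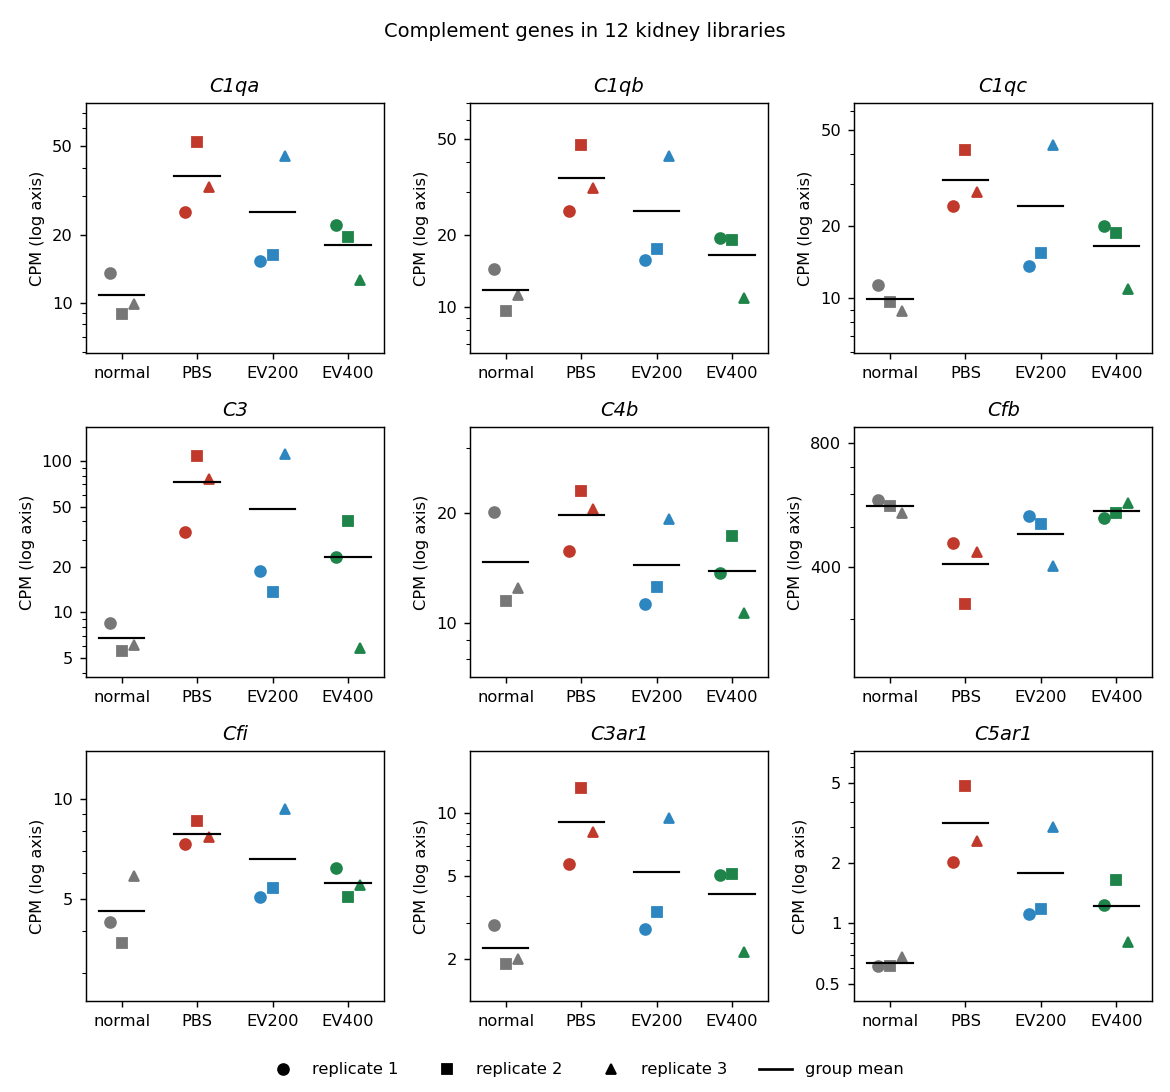
Level of each complement gene in every library, in CPM on log axes, with symbols for replicate 1, 2 and 3 and a bar at the group mean. PBS libraries lie above the normal ones for every gene but C4b, which overlaps, and Cfb, which lies below, and EV200 3 lies above the other EV200 libraries for every gene but Cfb.

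The 3 C1q genes were higher in every PBS library than in any normal library. C1qa rose 3.41-fold and passed the test, while C1qb and C1qc, 2.93-fold and 3.12-fold higher, missed the threshold narrowly. C1qa, the A chain, measured 13.5, 8.91 and 9.9 CPM in normal, 25.3, 51.9 and 32.7 in PBS, 15.3, 16.3 and 44.9 in EV200, and 22.3, 19.6 and 12.6 in EV400. PBS 2 was highest, EV200 3 lay within the PBS range, and EV400 3 lay within the normal range. C1qb, the B chain, measured 14.4, 9.65 and 11.2 CPM in normal, 25.0, 46.9 and 31.3 in PBS, 15.7, 17.4 and 42.3 in EV200, and 19.3, 19.0 and 10.9 in EV400. C1qc, the C chain, measured 11.4, 9.71 and 8.88 CPM in normal, 24.2, 41.5 and 27.8 in PBS, 13.7, 15.4 and 43.3 in EV200, and 20, 18.7 and 11 in EV400. For both genes the same libraries stood highest and lowest within each cisplatin group, except that C1qc in EV200 3 exceeded PBS 2. The group means of C1qa ran from 10.8 ± 2.4 CPM in normal through 18.2 ± 5.0 in EV400 and 25.5 ± 16.8 in EV200 to 36.6 ± 13.7 in PBS (SD, n = 3), and only the step from normal to EV400 was larger than the larger SD of the neighbouring groups. The log2 fold changes of PBS against normal were 1.77 ± 0.41 for C1qa, 1.55 ± 0.38 for C1qb and 1.64 ± 0.40 for C1qc (SE), with adjusted p of 0.0471, 0.0503 and 0.0506 by the quasi-likelihood test of edgeR after Benjamini-Hochberg adjustment.

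The chains kept near-equal proportions. On the authors' TPM scale, which accounts for transcript length, C1qa made up 31.5 to 37.0% of the C1q total, C1qb 30.7 to 36.7% and C1qc 29.7 to 35.1% over the 12 libraries. C1q is assembled from equal numbers of its chains. No 101-base word of C1qa was found in C1qb or C1qc, and none of C1qb in C1qc.

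C3, the central component of all pathways, had the largest difference among the members. It measured 8.55, 5.6 and 6.14 CPM in normal, 34.1, 108 and 75.5 in PBS, 18.8, 13.7 and 112 in EV200, and 23.4, 40.2 and 5.84 in EV400. Every PBS and EV200 library lay above the normal ones, EV200 3 was the highest of all, and EV400 3 lay among the normal libraries. The mean was 6.77 ± 1.57 CPM in normal and 72.6 ± 37.1 in PBS (SD, n = 3). The difference was 3.42 ± 0.85 on the log2 scale (SE), a 10.7-fold higher level, with an adjusted p of 0.0523, so C3 was not called.

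C4b, the classical pathway's C4 gene in mouse, differed little. It measured 20.1, 11.5 and 12.5 CPM in normal, 15.8, 22.9 and 20.5 in PBS, 11.3, 12.6 and 19.3 in EV200, and 13.7, 17.3 and 10.7 in EV400. All 4 groups overlapped, with normal 1 within the PBS range. The PBS difference was 0.43 ± 0.26 (log2, SE) with an adjusted p of 0.278. Its count is uncertain, since 865 of its 5773 words of 101 bases (15.0%) also occur in C4a. The sum of C4b and C4a was 27.1, 17.4 and 15.7 CPM in normal and 19.2, 25.5 and 24.1 in PBS, which overlapped as well.

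Cfb, which encodes factor B, was lower in every PBS library than in any normal library, the reverse of C3. It measured 582, 562 and 541 CPM in normal, 458, 325 and 435 in PBS, 531, 508 and 403 in EV200, and 526, 540 and 571 in EV400. PBS 2 was lowest, the EV200 libraries also lay below the normal ones, and EV400 overlapped normal. The PBS difference was -0.47 ± 0.13 (log2, SE) with an adjusted p of 0.0612, so Cfb was not called. In the GENCODE vM21 annotation its exons overlap those of the gene model Gm20547 by 2246 bases on the same strand, and Gm20547 also overlaps the neighbouring C2 by 1656 bases, so counts of both genes are uncertain. C2, which encodes the partner of C4 in the classical convertase, measured 52.5 ± 1.17 CPM in normal and 38.7 ± 6.77 in PBS (SD, n = 3), a log2 difference of -0.44 ± 0.12 (SE; adjusted p 0.0556).

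Cfi, which encodes factor I, was higher in every PBS library than in any normal library. It measured 4.26, 3.7 and 5.85 CPM in normal, 7.33, 8.56 and 7.67 in PBS, 5.07, 5.39 and 9.31 in EV200, and 6.2, 5.08 and 5.52 in EV400. EV200 3 was the highest of all, and the EV400 libraries lay below all PBS libraries. The PBS difference was 0.77 ± 0.23 (log2, SE) with an adjusted p of 0.0682.

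Of the receptors, C5ar1 rose 4.91-fold in PBS and passed the test, and C3ar1 was 3.99-fold higher without passing. C3ar1, the receptor of C3a, measured 2.91, 1.89 and 2.01 CPM in normal, 5.74, 13.3 and 8.14 in PBS, 2.79, 3.36 and 9.55 in EV200, and 5.05, 5.12 and 2.16 in EV400. C5ar1, the receptor of C5a, measured 0.618, 0.616 and 0.685 CPM in normal, 2.03, 4.81 and 2.58 in PBS, 1.12, 1.18 and 3.03 in EV200, and 1.23, 1.64 and 0.811 in EV400. For both, PBS lay above normal without overlap, PBS 2 was highest, and EV200 3 and EV400 3 departed from their groups upward and downward. The log2 fold changes were 2.00 ± 0.49 for C3ar1 and 2.30 ± 0.45 for C5ar1 (SE), with adjusted p of 0.0523 and 0.0405.

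In all, 2 of 9 members were called in PBS against normal, C1qa and C5ar1, where 2.74% of the 18730 genes tested were called. A further 6 had an unadjusted p under 0.05 and adjusted p between 0.0503 and 0.0682, and C4b had neither. Of all genes tested, 29.8% had an unadjusted p under 0.05. Of the members, 7 were higher in PBS without overlap, where 20.3% of all genes were, and Cfb was lower without overlap, where 20% of all genes were. Since the members and gene lists were chosen with earlier results of these data known, the shares over all genes are not an independent yardstick. The 2 calls rested on several libraries: DESeq2, which called 8 members and 2835 genes, and limma-voom, which called 8 members and 6164 genes, kept both, but no member was called when any normal library, PBS 2, PBS 3, EV200 2, EV400 1 or EV400 2 was left out. This held for the whole table: of all genes tested, 0 were called without any normal library, and 1, 79, 80, 31 and 6 without PBS 2, PBS 3, EV200 2, EV400 1 and EV400 2, against 514 with all libraries. The members called were 7 without PBS 1, 6 without EV200 1, 8 without EV200 3 and 6 without EV400 3, beside 2277, 903, 2405 and 848 of all genes. The sign of all 9 differences was the same in all 180 values computed under alternatives, which reuse the same libraries and are not independent.

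**Figure D2:**
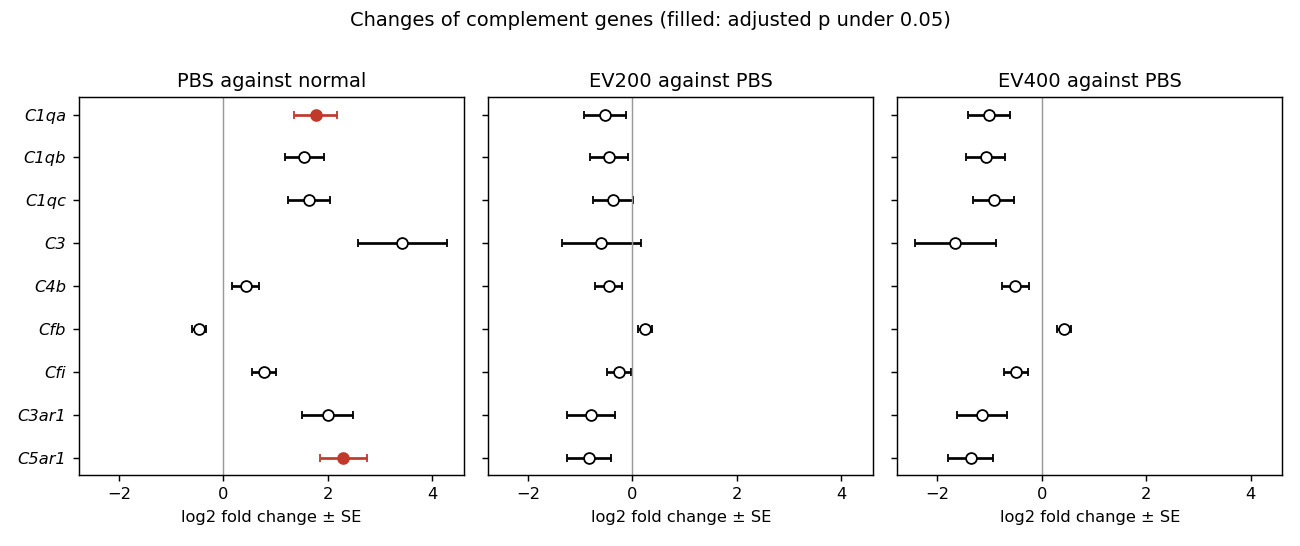
Log2 fold change of each member with its SE for PBS against normal, EV200 against PBS and EV400 against PBS, filled where the adjusted p was under 0.05. Only C1qa and C5ar1 in PBS against normal are filled, and the vesicle comparisons share the PBS libraries.

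At the lower vesicle dose the mean CPM of every member but C4b lay between those of normal and PBS, with wide spread; C4b averaged 14.4 ± 4.3 CPM in EV200 and 14.7 ± 4.71 in normal (SD, n = 3). Against PBS no member was called by edgeR, where 0.016% of genes were called, and all 9 overlapped. None had an unadjusted p under 0.05, where 6.9% of genes did. C1qa differed by -0.52 ± 0.39, C3 by -0.59 ± 0.76 and C5ar1 by -0.83 ± 0.42 (log2, SE), with adjusted p of 0.666, 0.784 and 0.657. Under the alternatives these ranged from -1.22 to -0.18 for C1qa, -2.16 to -0.15 for C3 and -1.45 to -0.37 for C5ar1, with the lowest values without EV200 3. DESeq2 called 0 members and 45 of all genes there, and limma-voom, which weights libraries, called 6 members and 1649 genes. EV200 1 and EV200 2 were below all PBS libraries for C1q, C3 and both receptors, and EV200 3 was within or above the PBS range for C1q, C3 and both receptors. Against normal, 5 members were higher without overlap (C1qa, C1qb, C1qc, C3 and C5ar1), where 11.9% of genes were. None was called by edgeR, where 0.0694% of genes were called, and 7 had an unadjusted p under 0.05, where 13.2% of genes did. C3 was the only member called by DESeq2 (494 genes in all), with 0 by limma-voom (1098 genes).

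At the higher dose, 6 members (C1qa, C1qb, C1qc, Cfi, C3ar1 and C5ar1) were lower in every EV400 library than in any PBS library, where 13.8% of all genes were, and Cfb was higher in every EV400 library, where 12.2% were. No member was called by edgeR, where 0.0801% of genes were called, and 6 had an unadjusted p under 0.05, where 23.5% of genes did. By DESeq2, 2 members (Cfb and C5ar1) and 940 genes were called, and by limma-voom 5 members and 2731 genes. The log2 differences were -1.01 ± 0.40 for C1qa, -1.65 ± 0.78 for C3, 0.43 ± 0.13 for Cfb, -1.14 ± 0.48 for C3ar1 and -1.36 ± 0.43 for C5ar1 (SE), with adjusted p of 0.182, 0.222, 0.151, 0.192 and 0.151. C3 overlapped because EV400 2, at 40.2 CPM, exceeded PBS 1, at 34.1 CPM. Against normal, edgeR called no gene at all (0% of those tested), and 1308 genes (6.98%), but no member, had an unadjusted p under 0.05. C5ar1 was higher in every EV400 library than in any normal one, by 0.94 ± 0.45 (log2, SE), with an adjusted p of 0.722 by edgeR. The other 8 members overlapped. The share of all genes higher without overlap in EV400 is not given here. DESeq2 called 0 members and 35 genes there, and limma-voom called 3 members (C1qa, C1qc and C3ar1) and 1481 genes.

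The doses were not told apart. No member was called between EV400 and EV200, where 0.00534% of genes were called, both other tools called 0, and all 9 overlapped. None had an unadjusted p under 0.05, where 6.34% of genes did. C1qa differed by -0.49 ± 0.40 and C3 by -1.05 ± 0.77 (log2, SE), and both signs turned without EV200 3, to 0.20 and 0.51. A joint test for any difference among the 4 groups called no member by edgeR, where 0.0641% of genes were called. In it, 8 members had an unadjusted p under 0.05, where 19.7% of genes did. By DESeq2 the joint test called 7 members and 1726 genes, and by limma-voom 8 members and 6634 genes.

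On the TPM scale the order of the members was led by Cfb in every group, at 362 ± 13.0 in normal, 298 ± 41.7 in PBS, 333 ± 33.4 in EV200 and 345 ± 28.4 in EV400 (SD, n = 3). The C1q chains followed, at 15.9 to 18 TPM on average in normal and 57.2 to 66.2 in PBS, and neighbours among them differed by less than their SD in each group. C3 ranked 7 of 9 in normal, at 2.33 ± 0.652 TPM, behind C4b at 4.59 ± 1.51 and Cfi at 3.74 ± 0.99, and neighbours in that order overlapped. In PBS, C3 ranked 5 at 28.0 ± 15.2 TPM, above Cfi at 7.31 ± 0.92 and C4b at 7.11 ± 1.57, which overlapped. The receptors were lowest in each group, at 0.891 ± 0.225 (C3ar1) and 0.418 ± 0.0308 TPM (C5ar1) in normal and 4.12 ± 1.93 and 2.41 ± 1.25 in PBS. The ratio of Cfb to C3 in TPM was 123 to 191 in normal and 5.82 to 26.0 in PBS, and the share of all member TPM held by C1q was 10.6 to 13.6% in normal and 26.5 to 45.0% in PBS.

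**Figure D3:**
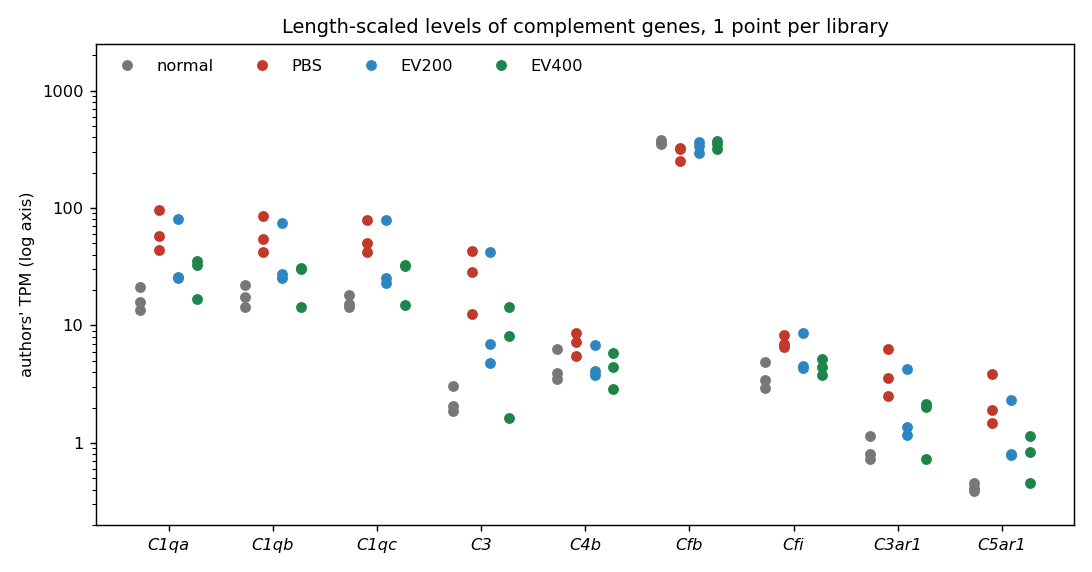
Length-scaled level of each member in the authors' TPM on a log axis, 1 point per library, coloured by group. Cfb is highest in every library, the 3 C1q chains lie together, and C3 moves from 1.86 to 3.07 TPM in normal up to 12.6 to 43.0 TPM in PBS.

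To set macrophage C1q against the other components, the ratio of counts within each library was used, since it does not depend on the scaling of libraries. With 3 libraries against 3, the smallest exact permutation p is 0.1, so no ratio could pass; 15 ratio comparisons were made. The log2 ratio of C1qa to C3 was 0.66, 0.67 and 0.69 in normal, -0.43, -1.06 and -1.21 in PBS, -0.29, 0.24 and -1.32 in EV200, and -0.07, -1.03 and 1.11 in EV400. The normal libraries were almost alike, every PBS and EV200 library was below them, and EV400 3 was above them. PBS minus normal was -1.57, without overlap (two-sided exact permutation p = 0.1, adjusted 0.25). EV400 minus PBS was 0.90 with overlap (exact p = 0.2, adjusted 0.346).

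Relative to the other components, C1qa was higher in PBS. PBS minus normal was 1.27 for the log2 ratio of C1qa to C4b, 2.21 to Cfb and 0.93 to Cfi, each without overlap and each at the smallest exact permutation p of 0.1 (adjusted 0.25). The ratio to Cfb was also lower in EV400 than in PBS without overlap, by -1.43 (exact p = 0.1, adjusted 0.25). The other EV400 and EV200 differences from PBS overlapped.

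**Figure D4:**
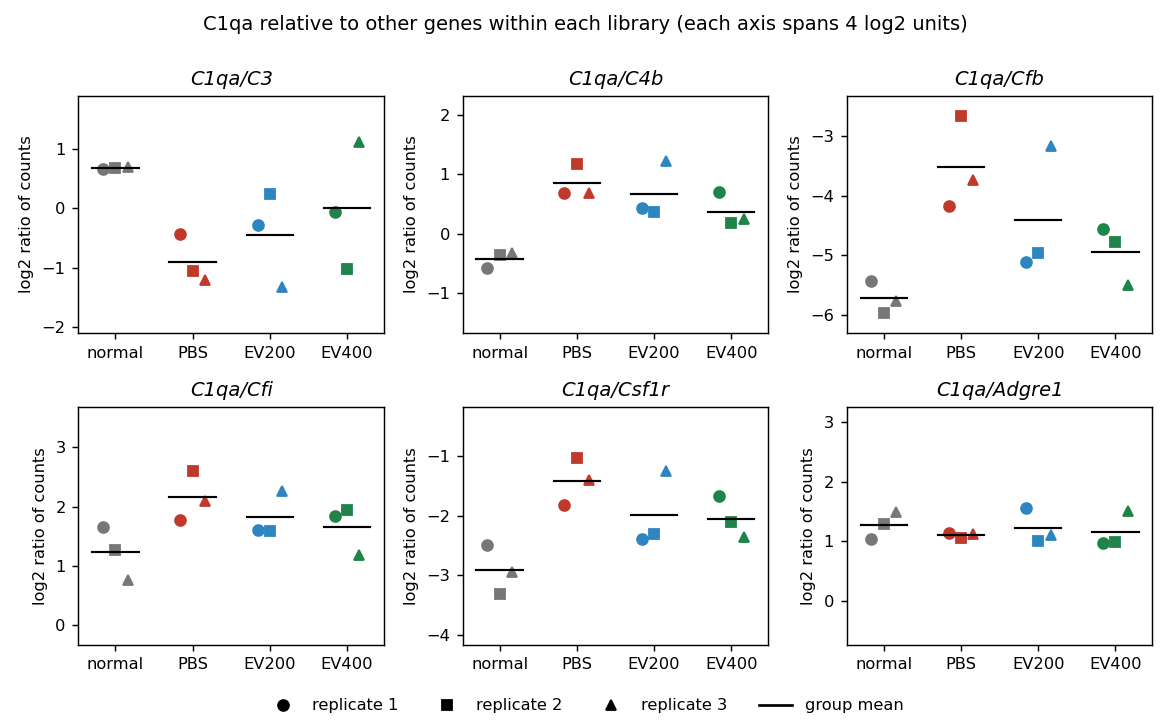
Log2 ratio of C1qa counts to those of C3, C4b, Cfb, Cfi, Csf1r and Adgre1 in each library, with a bar at the group mean; every axis spans 4 log2 units. From normal to PBS the mean ratio to C3 changed by -1.57, the ratios to C4b, Cfb, Cfi and Csf1r were higher without overlap, and the ratio to Adgre1 overlapped.

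The macrophage markers differed among themselves. Csf1r, the receptor of macrophage colony-stimulating factor, averaged 80.2 ± 7.02 CPM in normal and 93.4 ± 10.5 in PBS (SD, n = 3), and the log2 ratio of C1qa to it was higher by 1.51 in PBS (exact permutation p = 0.1, adjusted 0.25). Adgre1, the macrophage surface protein F4/80, averaged 4.57 ± 1.72 CPM in normal and 17.2 ± 6.9 in PBS, and the log2 ratio of C1qa to it was 1.27 ± 0.23 in normal, 1.10 ± 0.04 in PBS, 1.22 ± 0.30 in EV200 and 1.15 ± 0.31 in EV400. Adgre1 was added to these ratios after the data were seen, and was not tested. Of the 20 macrophage markers, 5 were called higher in PBS than in normal (Cd68, Lyz2, Ms4a7, Ctss and Cd53) and none lower, where 2.74% of all genes tested were called. The median log2 difference of the 20 was 1.9 against 0.0022 over all genes tested. The log2 ratio of C1qa to the summed marker level ranged from -4.70 to -4.08 over the 12 libraries. It was -4.27, -4.70 and -4.52 in normal and -4.19, -4.14 and -4.19 in PBS, higher in PBS without overlap. EV200 and EV400 overlapped both, and this ratio was not tested. Abundant markers weigh most in the sum, such as Csf1r and Mertk in normal and Lyz2, at 178 CPM on average, in PBS. Mertk averaged 65.2 ± 3.46 CPM in normal and 64.1 ± 6.21 in PBS (SD, n = 3). The part of the macrophage markers in the C1q, C3 and receptor differences was not tested.

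Markers of other cells moved beside them in part. The summed level of 6 dendritic cell markers was 14.8 to 17.6 CPM in normal and 20.2 to 40.4 in PBS, and that of 7 T and NK cell markers 4.13 to 7.29 and 8.97 to 14.2. The 8 fibroblast and pericyte markers summed to 151 to 158 CPM in normal and 222 to 636 in PBS, and the 8 tubular injury markers to 355 to 456 and 950 to 1410. Of these 2 lists, 2 and 5 markers were called higher, respectively. So were 1 of the 7 T and NK cell markers and 1 of the 10 kidney genes, where 2.74% of all genes tested were called. The 5 B cell markers (2.83 to 3.39 against 3.11 to 3.61 CPM) and the 6 endothelial markers (331 to 357 against 292 to 351) overlapped. Neutrophil markers summed to at most 5.15 CPM in any library, with Ly6g and Camp at 0 in all. Hepatocyte markers summed to 513 to 594 CPM in normal and 465 to 496 in PBS, below normal without overlap. None of the 8 was called by edgeR, and 4 had an unadjusted p under 0.05, where 29.8% of all genes did. Fitted levels in PBS were higher for 3 of them (Ttr, Fga and Fgb) and lower for 5. The 10 kidney genes summed to 33400 to 36700 CPM in normal and 24100 to 30400 in PBS. Adipocyte markers summed to 0.219 to 0.308 CPM in normal and 0.303 to 23.5 in PBS. The part of these cells in the members' differences was not tested.

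The genes with profiles most like C1q over the 12 libraries, by root mean square distance of centred log2(CPM + 0.5), were H2-Aa (0.1), Arl4c (0.106), Fcgr3 (0.11), H2-Eb1 (0.118) and Lsp1 (0.119), where the median over 10665 genes with at least 5 CPM was 0.76. These were distances from the mean profile of the 3 C1q chains. Distances between members were taken from C1qa alone, so the 2 kinds of value are not directly comparable. From C1qa, C1qc lay at 0.108, C1qb at 0.119, C3ar1 at 0.131 and C5ar1 at 0.199. Farther from C1qa lay Cfi at 0.477, C4b at 0.539, C3 at 0.791 and Cfb at 0.981. The distance is not scaled for the size of a gene's changes. A larger change in the same direction also lengthens it. Genes most like C3 were Lyz2 (0.359), Mrc1 (0.371), Aoc1 (0.385), Vcam1 (0.399) and Tnc (0.414), against a median of 1.53. These distances are descriptions over libraries that share the same group differences.

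Of 47 other complement genes listed, 39 passed the filter and 3 were at 0 in every library. In PBS against normal, 3 were called higher and 1 lower, where 2.74% of all genes tested were called. An unadjusted p under 0.05 was found for 26, where 29.8% of all genes had one. The median log2 difference was 0.56 against 0.0022 over all genes tested. Of all genes tested, 0 were called with any normal library left out and 1 without PBS 2, so these calls depend on single libraries too. Terminal pathway genes moved in opposite directions. C6, part of the membrane attack complex, rose from 0.177 ± 0.0537 to 2.3 ± 1.67 CPM (SD, n = 3), by 3.69 ± 0.85 in log2 (SE; adjusted p 0.0471). C7, which joins C6 in that complex, rose from 7.78 ± 0.547 to 40.4 ± 19.6 CPM, by 2.38 ± 0.55 (adjusted p 0.0471). C8a, the alpha chain of C8, fell from 37.8 ± 2.49 to 24.6 ± 1.14 CPM, a change of -0.62 ± 0.12 (adjusted p 0.0420).

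Among the regulators, Clu, the fluid-phase inhibitor clusterin, rose from 164 ± 7.26 to 289 ± 23.1 CPM, by 0.82 ± 0.16 (adjusted p 0.0405). For the classical protease gene C1s1 the means were 19.1 ± 0.958 and 40.1 ± 19.8 CPM, a difference of 1.07 ± 0.37 (adjusted p 0.0935). In the lectin group, the scavenger receptor gene Colec12 averaged 14.1 ± 0.426 and 28.2 ± 14.0 CPM and the mannose-binding lectin gene Mbl1 4.42 ± 0.32 and 3.3 ± 0.636 CPM, neither called.

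Properdin, encoded by Cfp, stabilizes the alternative convertase; its gene averaged 2.24 ± 0.101 CPM in normal and 6.56 ± 1.54 in PBS, a log2 difference of 1.55 ± 0.42 (adjusted p 0.0587). Cfd, the gene of factor D, which cleaves factor B, had a count of 0 in every normal library, and 21, 0 and 1444 counts in PBS 1, 2 and 3. PBS 3 was also the library with adipocyte RNA, at 7.67 CPM of Adipoq against 0 in normal, and Cfd is an abundant adipocyte product; its part in the Cfd value was not tested. Of the receptor and binding genes, Cd93 averaged 20.1 ± 1.54 and 31.0 ± 7.87 CPM and C1qbp 70.3 ± 1.41 and 58.5 ± 5.13 CPM, neither called.

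Against PBS, no other complement gene was called by edgeR at either dose. Of the 39 tested, 3 had an unadjusted p under 0.05 for EV200 and 18 for EV400, where 6.9% and 23.5% of all genes did. The median log2 difference was -0.16 for EV200 and -0.55 for EV400, against -0.0025 and -0.025 over all genes tested. C7 averaged 17.4 ± 10.5 CPM in EV200 and 17.0 ± 9.93 in EV400, and Clu 271 ± 47.8 and 224 ± 50.1 CPM (SD, n = 3).

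**Figure D5:**
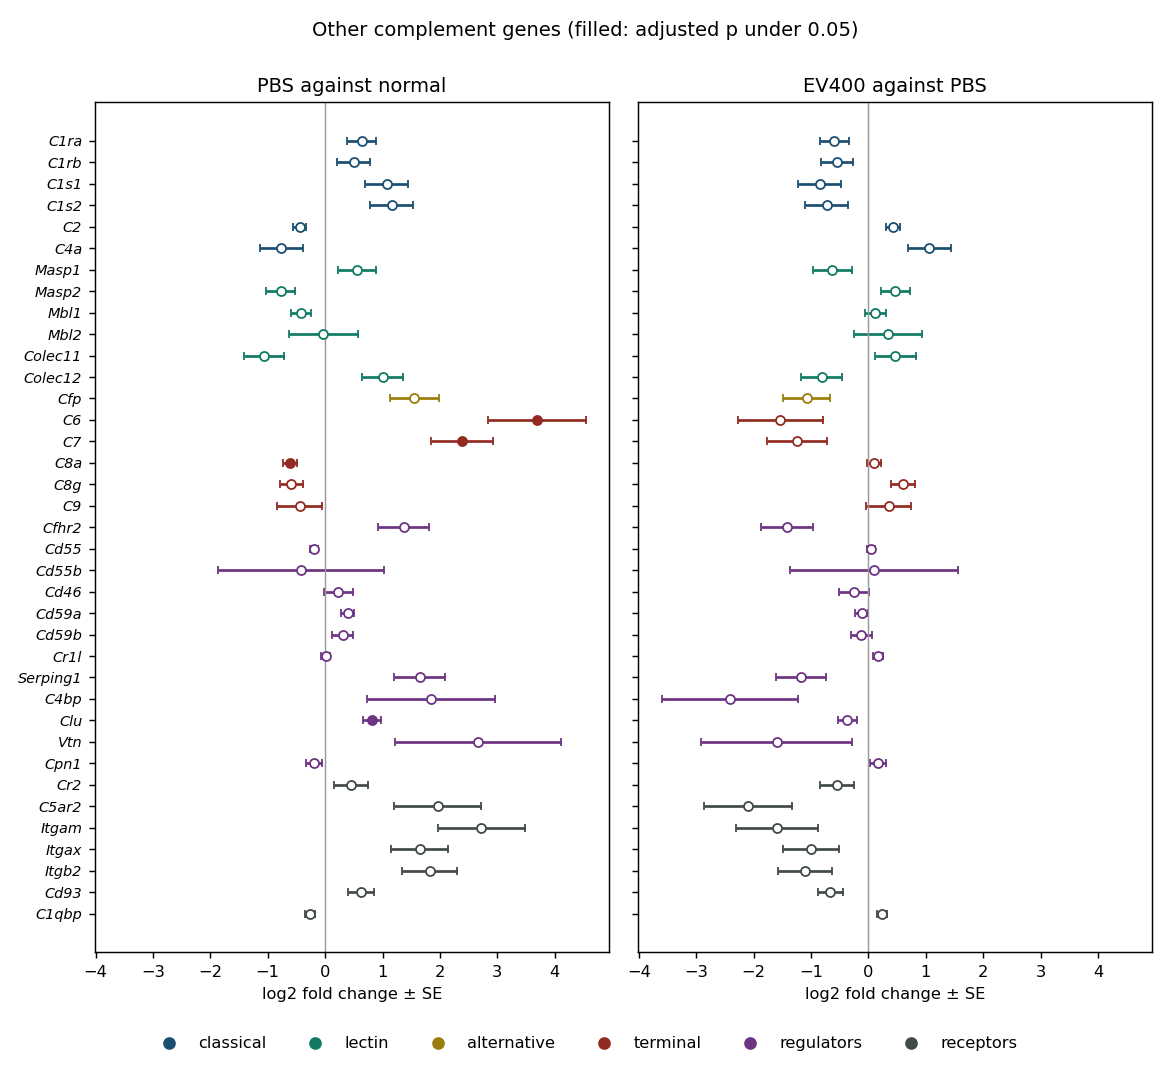
Log2 fold change with its SE of other complement genes tested, coloured by list, for PBS against normal and EV400 against PBS, filled where the adjusted p was under 0.05. C6, C7, C8a and Clu are filled in PBS against normal and none in EV400 against PBS; Cfd, at 0 counts in all normal libraries, is not drawn, and both panels share the PBS libraries.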

How the data were processed

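Mouse kidney mRNA was made into 12 stranded libraries and read from both ends over 101 bases, per the labels' protocols. Per the submitters' processing notes, the tools included HISAT2 2.1.0, StringTie 2.1.3b, Trimmomatic 0.38 and FastQC 0.11.7, and the builds mm10 and GRCm38. Which program counted reads, with what strand setting and annotation, is not given in the sources used here. A table, per the file headers, holds the deposited whole-number read counts per gene and the authors' TPM, which are scaled for transcript length. Its 12 further FPKM columns were not used.

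Differences in counts were tested with edgeR 4.0.16 under R 4.3.3, by its quasi-likelihood test (TMM factors, default filter by group, all 12 libraries in 1 fit, 8 residual degrees of freedom, 18730 genes, Benjamini-Hochberg over all of them, called at an adjusted p under 0.05). Standard errors (SE) were taken as the size of the log2 fold change over the square root of F. Ratios used counts + 0.5. TPM was used to compare levels between genes and was not tested. Alternatives were DESeq2 1.42.0, its size factors, limma-voom with quality weights (limma 3.58.1), other filters, the replicate number as a block, the compared groups alone and leaving out each library. Omitting EV200 3 and EV400 3 together, and the Adgre1 ratio, were chosen after seeing the data. PBS 2 was not part of that joint omission. It had the lowest limma-voom weight, 0.163, beside 0.283 for EV200 3 and 0.344 for EV400 3. The fit was tested on simulated data.

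The members and gene lists were chosen with earlier results of these data known. Beyond the members, the text names other complement genes that were called, the 2 most abundant of each complement list, the 5 genes nearest in profile to C1q and to C3, and markers a result turns on. A gene that this rule names is not reported here. Adipoq, Cd55b, the hepatocyte genes and Gm20547 were named after their values or positions were seen. Coordinates came from RefSeq (GRCm38.p6), which held 45679 of the identifiers.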

Additional observations from a re-analysis of the deposited data

How the results depend on the processing

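No member's difference changed sign in PBS against normal, EV200 against PBS or EV400 against PBS under any of 180 values computed per comparison. These values reuse the same libraries and are not independent. Some leave out a library of neither compared group, which can change the difference little. How many members were called in PBS against normal, 2 as reported, did depend on the method: 1 with no low-count filter, 6 with at least 50 counts in 3 libraries, 8 with DESeq2, 8 with limma-voom, 7 with only the groups compared, 3 with DESeq2 size factors, and 8 when EV200 3 and EV400 3 were both omitted. Over all genes 514 were called as reported. For these alternatives, in the same order, the counts over all genes were 299, 826, 2835, 6164, 1449, 523 and 2955. Leaving out each library gave 0 to 8 members and 0 to 2405 of all genes. With the replicate number as a block, 0 members and 0 genes were called. Of 18 same-numbered pairs of libraries, 3 correlated above 0.1 (range -0.469 to 0.488). The regulator gene Cd55b had 0 counts in replicate 2 of every group and 18 to 42 in every other library. Whether the numbers pair the samples is therefore not settled.

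Where no member was called by edgeR, DESeq2 called 1 in EV200 against normal and 2 in EV400 against PBS (494 and 940 of all genes), and limma-voom called 3 in EV400 against normal, 6 in EV200 against PBS and 5 in EV400 against PBS (1481, 1649 and 2731 of all genes). The joint test gave 7 with DESeq2, 8 with limma-voom, 0 to 6 with a library left out and 6 with EV200 3 and EV400 3 both omitted. Beside these, 1726, 6634, 1 to 409 and 887 of all genes were called. The cause of these differences was not tested.

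Signs turned for small differences. C4b against normal became 0.28, 0.13 and 0.08 for EV200 without normal 1, EV200 1 or EV200 2, and 0.24, 0.10 and 0.10 for EV400 without normal 1, EV400 3 or both EV200 3 and EV400 3. Cfb in EV400 against normal became 0.0017 without normal 1. Leaving out a library gave ranges of -0.30 to 0.28, -0.27 to 0.24 and -0.058 to 0.0017 for these 3 differences. Between the doses, C1qa became 0.27 with limma-voom, 0.20 without EV200 3 and 0.41 with both omitted, and C3 became 0.46, 0.51 and 0.97, with ranges of -0.75 to 0.20 and -1.71 to 0.51 when a library was left out. Depth was lowest for C5ar1, at 30 to 333 counts per library.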
